A study of Mus musculus with 6 samples.

Results

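The genes described here are 10 known targets of the transcription factor p53, chosen by name: Cdkn1a, Mdm2, Ccng1, Pmaip1, Bbc3, Bax, Sesn1, Trp53inp1, Zmat3 and Gdf15. Of these, 8 had a probe set under their symbol in the platform annotation, 1 each, among 19505 genes compared. Bax and Gdf15 had none and were not analysed here. They were measured in salivary glands of mouse embryos taken at a stage written as T13 and kept in culture for 72 hours. The 3 control arrays came from glands labelled control and the 3 others from glands given TGF-β1, a cytokine whose receptors activate Smad proteins. The sources used here do not give strain, sex, type of salivary gland, dose of TGF-β1 or any pooling of embryos. The labels do not tie the replicates to separate cultures or litters, and p-values then cover the spread between these arrays alone, which may be technical.

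In unstressed cells p53 is held low by Mdm2, a ubiquitin ligase that is itself a p53 target and so closes a feedback loop. When DNA is damaged or growth is disturbed, p53 is stabilised and raises genes that stop the cell cycle (Cdkn1a), release apoptosis (Pmaip1, Bbc3, Bax), limit growth signalling through mTORC1 (Sesn1) or feed back on p53 itself (Mdm2, Ccng1, Trp53inp1). In salivary glands p53 is best known for the response of secretory cells to radiation. Several of these genes answer to other signals too, and Cdkn1a is a known target of TGF-β in epithelial cells.

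Most of the p53 targets were lower in glands given TGF-β1 than in controls 1 and 2, and Sesn1 was higher. Against the mean of those 2 controls, 7 of the 8 genes were lower in each of the 3 TGF-β1 arrays, where 47.3% to 51.0% of all genes were. In control 3 the same held for 6 of the 8 and for 39.3% of all genes. By rank within the array, 6, 6 and 7 of the 8 genes stood below both controls in TGF-β1 arrays 1 to 3, and 6 in control 3. The share of all genes below both controls by rank was not computed, so these rank counts have no background to be read against. In the fit with array weights, limma's linear model in which each array counts by its estimated reliability, 4 fell (Cdkn1a, Pmaip1, Ccng1 and Trp53inp1), 1 rose (Sesn1) and 3 did not pass (Mdm2, Zmat3 and Bbc3). The words rose and fell are kept for genes with an adjusted p under 0.05 in that fit. It called 6.88% of all genes, 3.44% lower and 3.45% higher. The median difference over the 8 genes was -0.81 on the log2 scale, against 0.01 over all genes. The unweighted fit of all 6 arrays called 0 of the 8 genes and 0% of all genes. At an unadjusted p under 0.05 it held 2 of the 8, Pmaip1 and Sesn1, and 389 of all genes.

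Control 3 stood apart from the other arrays. It correlated with them at 0.55 to 0.60 over all genes, while the 4 arrays numbered 1 and 2 correlated with each other at 0.97 to 0.99 and TGF-β1 3 with those 4 at 0.95. Its interquartile range was 2.05 against 3.17 to 3.26 in the others, and Gapdh, a glycolytic enzyme of every cell, was at 6.21 there against 11.87 to 11.98. The array weights were 0.0338 for control 3, 0.398 for TGF-β1 3 and 1.65 to 4.52 for the other arrays. The weighted calls therefore rest mostly on 4 arrays, and among them most on control 2 (4.52) and TGF-β1 1 (4.29). Control 1 had a weight of 1.65 and TGF-β1 2 one of 2.33. With control 3 set aside, control 2 was the highest array and TGF-β1 1 the lowest for Cdkn1a, Ccng1, Pmaip1 and Trp53inp1. The estimation of the weights stopped short of its convergence tolerance, and its p-values take the weights as known, which makes them too small. Without control 3 the weighted fit called 4 of the 8 genes (2.79% of all genes), and without any single other array it called 0 of the 8. Over all genes it then called 0 without control 1 or control 2, 8 without TGF-β1 1, 12 without TGF-β1 2 and 375 without TGF-β1 3. Centring each array on its median left 0 of the 8 and 265 of all genes called. The adjusted p then ran from 0.0704 (Pmaip1) to 0.272 (Ccng1) among the 5 genes called before.

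Promoter sequences of Cdkn1a, Ccng1 and Sesn1 are shown because these called genes had a RefSeq window (GRCm38.p6) with a match to the p53 decamer, the 10-base unit of which a p53 response element holds a pair. Capitals mark matches on either strand to that decamer, to CAGAC, the core bound by Smad proteins, and to GGGCGG, the GC box. Each window runs from 250 bases before the annotated start to 50 bases from it.
Cdkn1a, chr17:29090729-29091028, plus strand: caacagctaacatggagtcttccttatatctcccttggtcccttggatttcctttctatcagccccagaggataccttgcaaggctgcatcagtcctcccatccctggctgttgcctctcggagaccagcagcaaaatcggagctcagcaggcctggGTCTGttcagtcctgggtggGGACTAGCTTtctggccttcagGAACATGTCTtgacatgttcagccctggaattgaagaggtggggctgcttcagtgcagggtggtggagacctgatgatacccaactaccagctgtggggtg
Ccng1, chr11:40755237-40755536, minus strand: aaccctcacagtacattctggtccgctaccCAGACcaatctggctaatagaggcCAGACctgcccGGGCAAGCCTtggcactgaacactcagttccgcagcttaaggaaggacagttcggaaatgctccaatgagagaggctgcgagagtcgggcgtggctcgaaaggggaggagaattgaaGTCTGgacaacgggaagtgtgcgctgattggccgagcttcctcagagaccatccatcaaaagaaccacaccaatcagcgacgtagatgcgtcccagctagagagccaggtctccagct
Sesn1, chr10:41887189-41887488, plus strand: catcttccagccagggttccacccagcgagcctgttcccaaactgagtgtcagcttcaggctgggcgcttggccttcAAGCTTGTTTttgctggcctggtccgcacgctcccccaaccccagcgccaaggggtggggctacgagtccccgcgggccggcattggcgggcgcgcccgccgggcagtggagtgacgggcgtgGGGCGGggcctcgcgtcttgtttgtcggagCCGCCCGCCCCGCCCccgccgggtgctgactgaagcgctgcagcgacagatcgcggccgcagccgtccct
The Cdkn1a window belongs to the upstream of 2 annotated starts. It held decamers at -73 and -51 from that start (the start being 0), a pair spaced within the 13 bases allowed for a full response element. Only exact matches were searched, so decamers with a mismatched base are not marked, and the pair found need not be the element in use. The Ccng1 window held 1 decamer at -185 and 3 CAGAC matches. The Sesn1 window shown held 1 decamer at -173 and 4 GC box matches, some overlapping each other. Sesn1 also has a window at an annotated start further upstream, not shown, with a CAGAC match at -13, GC box matches and no decamer.

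Among the 12 windows of the 7 target genes with an entry, 5 of them measured here, 5 held a p53 decamer, against 8.36% of 32851 windows of all genes. A spaced pair was in 1 of the 12, against 0.0731% of all. CAGAC was in 8 of the 12 (49.6% of all windows) and GGGCGG in 8 (35.7%). The AP-1 motif TGACTCA was in none (5.2%) and TATAAA in none (13.6%). Genes with decamer matches include Sesn1, which rose, Cdkn1a and Ccng1, which fell, and Mdm2, which did not pass. A match is a string of letters and no measure of binding, and p53 elements outside these windows were not searched.

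Cdkn1a (Entrez gene 12575) encodes p21, the inhibitor of cyclin-dependent kinases through which p53 stops the cell cycle. Its log2 value was 11.03, 11.62 and 6.72 in controls 1 to 3, and 8.32, 9.46 and 10.95 in TGF-β1 arrays 1 to 3. Controls 1 and 2 were above all TGF-β1 arrays, TGF-β1 3 came close to control 1, and control 3 was below every other array. By rank among all genes of an array, Cdkn1a stood at the 96.9th and 98.4th percentile in controls 1 and 2, at the 74.4th, 87.5th and 96.3rd in the TGF-β1 arrays and at the 47.2nd in control 3. In the weighted fit it fell by 2.59 ± 0.39 (SE, 95% interval -3.44 to -1.74, adjusted p = 0.0029), a level 6.02-fold lower. That size depended on single arrays: it was -0.32 without control 1, -0.017 without control 2, -0.76 without TGF-β1 1 and -1.33 without TGF-β1 2. The unweighted group means were 9.79 ± 2.67 and 9.58 ± 1.32 (SD, n = 3 each), a difference of -0.21 ± 1.32 (SE). Without control 3 that difference was -1.75 ± 0.72 (adjusted p = 0.658), and without control 3 and TGF-β1 3 it was -2.43 ± 0.37 (adjusted p = 0.0274). The spread among the TGF-β1 arrays, from 8.32 to 10.95, was the widest of the 8 genes.

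Ccng1 (Entrez gene 12450) encodes cyclin G1, a p53 target that acts with Mdm2 in the feedback on p53. Its values were 9.81, 10.22 and 5.39 in the controls and 8.62, 9.36 and 9.40 in the TGF-β1 arrays. Controls 1 and 2 lay above all 3 TGF-β1 arrays, while control 3 lay far below them and under that array's lower quartile of 5.79. Ccng1 fell by 1.18 ± 0.26 in the weighted fit (adjusted p = 0.0190), but its unweighted difference had the opposite sign, 0.65 ± 1.21. The weighted one was 1.11 without control 1, 1.31 without control 2, -0.37 without TGF-β1 1, and -0.74 and -0.75 without TGF-β1 2 and 3. Without control 3 the unweighted difference was -0.89 ± 0.29 (adjusted p = 0.521), and with array weights on those 5 arrays it was -1.12 ± 0.25 (adjusted p = 0.0619).

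Mdm2 (Entrez gene 17246), the ubiquitin ligase that limits p53, was at 8.68, 9.08 and 7.99 in the controls and at 8.35, 8.68 and 8.14 in the TGF-β1 arrays. Control 1 and TGF-β1 2 differed by 0.0031, control 2 was the highest array by value and control 3 the lowest. By rank within the array, control 3 was at the 77.6th percentile, close to control 1 (78.5th) and TGF-β1 2 (78.7th). It stood above TGF-β1 1 (74.6th) and TGF-β1 3 (70.6th) by that measure. Mdm2 differed by -0.53 ± 0.17 in the weighted fit (adjusted p = 0.0927) and by -0.20 ± 0.39 in the unweighted one. Its 95% interval in the weighted fit was -0.90 to -0.16.

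**Figure D1:**
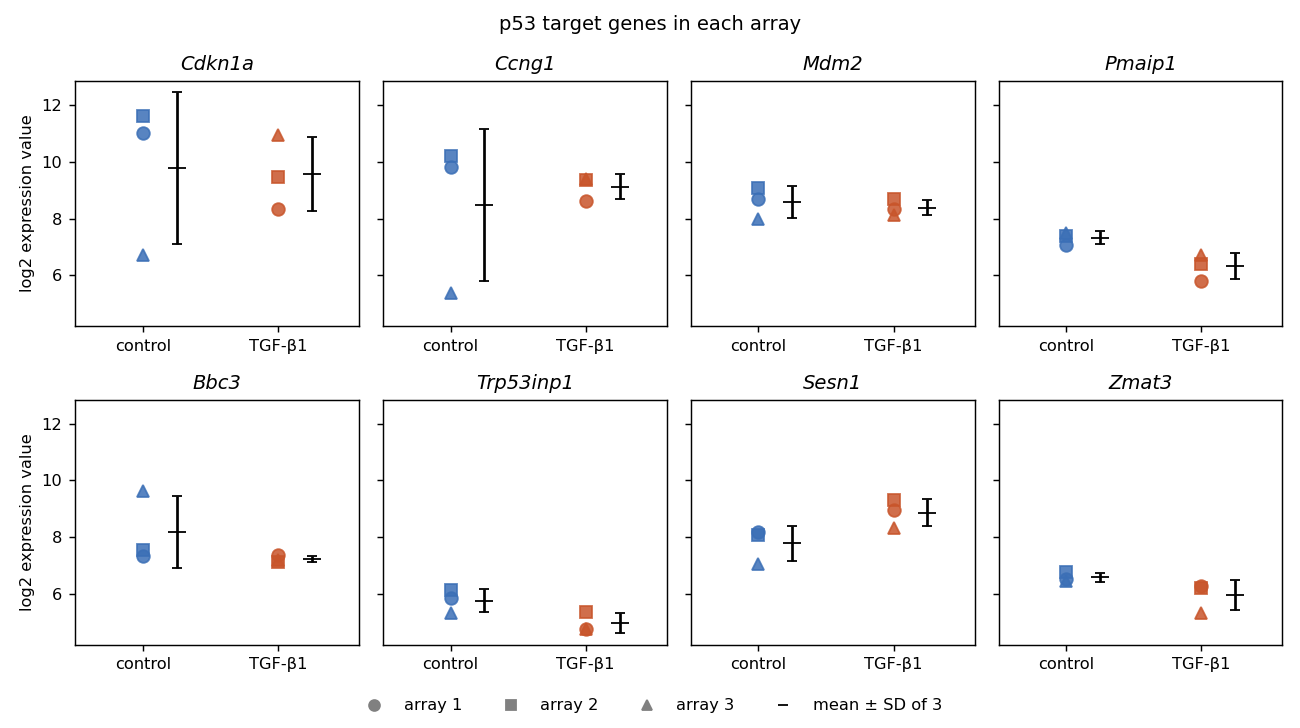
Log2 expression value (y axis) of the 8 p53 target genes in each of the 6 arrays, controls in blue and TGF-β1 in orange, with symbols for the replicate number and the mean ± SD of 3 arrays beside them. Control 3 (blue triangle) lies at 6.72 for Cdkn1a and 5.39 for Ccng1, far below the other controls, and at 9.63 for Bbc3, above them.

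Pmaip1 (Entrez gene 58801) encodes Noxa, a small protein that binds and disables the survival protein Mcl1. It was at 7.08, 7.39 and 7.50 in the controls and at 5.81, 6.41 and 6.72 in the TGF-β1 arrays. All 3 controls were above all 3 TGF-β1 arrays, control 3 included, as held for 5.78% of all genes in this direction. Pmaip1 fell by 1.25 ± 0.20 in the weighted fit (adjusted p = 0.0037), a level 2.38-fold lower. The weighted difference was -0.52 without TGF-β1 1 and -0.82 without TGF-β1 2, and -0.98 to -1.39 without any other single array. Its group means were 7.33 ± 0.22 and 6.31 ± 0.46 (SD, n = 3 each), and the unweighted difference was -1.01 ± 0.36 (unadjusted p = 0.0249, adjusted p = 0.776 in limma's fit over all genes). Without control 3 and TGF-β1 3 it was -1.13 ± 0.23 (adjusted p = 0.0544).

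Bbc3 (Entrez gene 170770) encodes Puma, another activator of apoptosis of the same BH3-only class. It was at 7.34, 7.53 and 9.63 in the controls and at 7.36, 7.13 and 7.19 in the TGF-β1 arrays. Apart from control 3, all arrays lay between 7.13 and 7.53 and the groups overlapped. Its weighted difference was -0.22 ± 0.16 (95% interval -0.56 to 0.12, adjusted p = 0.50). The unweighted difference of -0.94 ± 0.62 carries the high value of control 3, and without that array it was -0.21 ± 0.17. In control 3 Bbc3 stood at the 96.1st percentile of all genes, against the 55.6th to 61.9th in the other arrays.

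Trp53inp1 (Entrez gene 60599) encodes a nuclear and autophagy protein that p53 induces and that promotes the apoptotic activity of p53. Its values were 5.85, 6.12 and 5.31 in the controls and 4.74, 5.37 and 4.76 in the TGF-β1 arrays. Controls 1 and 2 were above the treated arrays and control 3 was within their range. The transcript was dim: TGF-β1 1 and 3 lay under the lower quartile of their arrays (5.15 and 5.13), and no measure of background is at hand, so the size of the difference is uncertain. It fell by 1.09 ± 0.19 in the weighted fit (adjusted p = 0.0057; -0.62 without control 2), and the unweighted difference was -0.80 ± 0.37. Without control 3 it was -1.03 ± 0.25 (adjusted p = 0.341), and without control 3 and TGF-β1 3 -0.93 ± 0.23 (adjusted p = 0.0886).

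Sesn1 (Entrez gene 140742) encodes sestrin 1, a stress-induced inhibitor of mTORC1 that FOXO factors also induce. It was at 8.17, 8.09 and 7.07 in the controls and at 8.96, 9.30 and 8.34 in the TGF-β1 arrays. All TGF-β1 arrays were above all controls, as were those of 5.80% of all genes, with TGF-β1 3 closest to the controls. Sesn1 rose by 0.93 ± 0.17 in the weighted fit (adjusted p = 0.0073), a level 1.91-fold higher. The weighted difference ranged from 0.50 without TGF-β1 2 to 1.46 without control 1 and 1.42 without control 2. The unweighted group means were 7.78 ± 0.62 and 8.87 ± 0.49 (SD, n = 3 each), a difference of 1.09 ± 0.44 (adjusted p = 0.776). Without control 3 and TGF-β1 3 it was 1.00 ± 0.17 (adjusted p = 0.0347), so that Sesn1 and Cdkn1a are the 2 genes also called by that fit, which called 2.59% of all genes.

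Zmat3 (Entrez gene 22401), an RNA-binding zinc finger protein induced by p53, was at 6.53, 6.75 and 6.44 in the controls and at 6.29, 6.21 and 5.34 in the TGF-β1 arrays. By value the groups did not overlap, as held for 5.78% of all genes in this direction. The lowest value by far was that of TGF-β1 3. By rank within the array they did overlap: control 3 stood at the 39.7th percentile, below TGF-β1 1 (41.7th) and TGF-β1 2 (41st). The weighted difference of Zmat3 was -0.48 ± 0.17 (adjusted p = 0.114) and its unweighted one -0.63 ± 0.37. The order of the TGF-β1 arrays was thus not the same in all genes: TGF-β1 3 was the nearest to controls 1 and 2 in Cdkn1a, Pmaip1, Ccng1 and Sesn1 and the farthest from them in Zmat3 and Mdm2. With control 3 set aside, 6 of the 8 genes had both remaining controls above all TGF-β1 arrays (12.3% of all genes did), Sesn1 had them below, and Bbc3 overlapped.

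**Figure D2:**
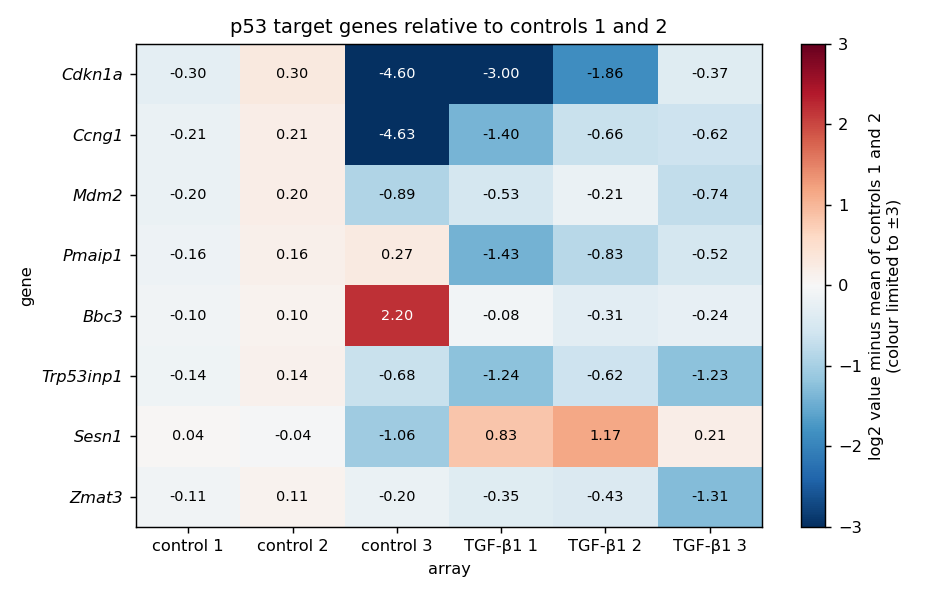
Log2 value of each p53 target gene (rows) in each array (columns) minus the mean of controls 1 and 2, with the number in each cell and colour limited to ±3. Of the TGF-β1 arrays, array 1 is lowest for Cdkn1a (-3.0) and array 3 for Zmat3 (-1.31), and Sesn1 is above 0 in all 3 TGF-β1 arrays; controls 1 and 2 mirror each other by construction.

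**Figure D3:**
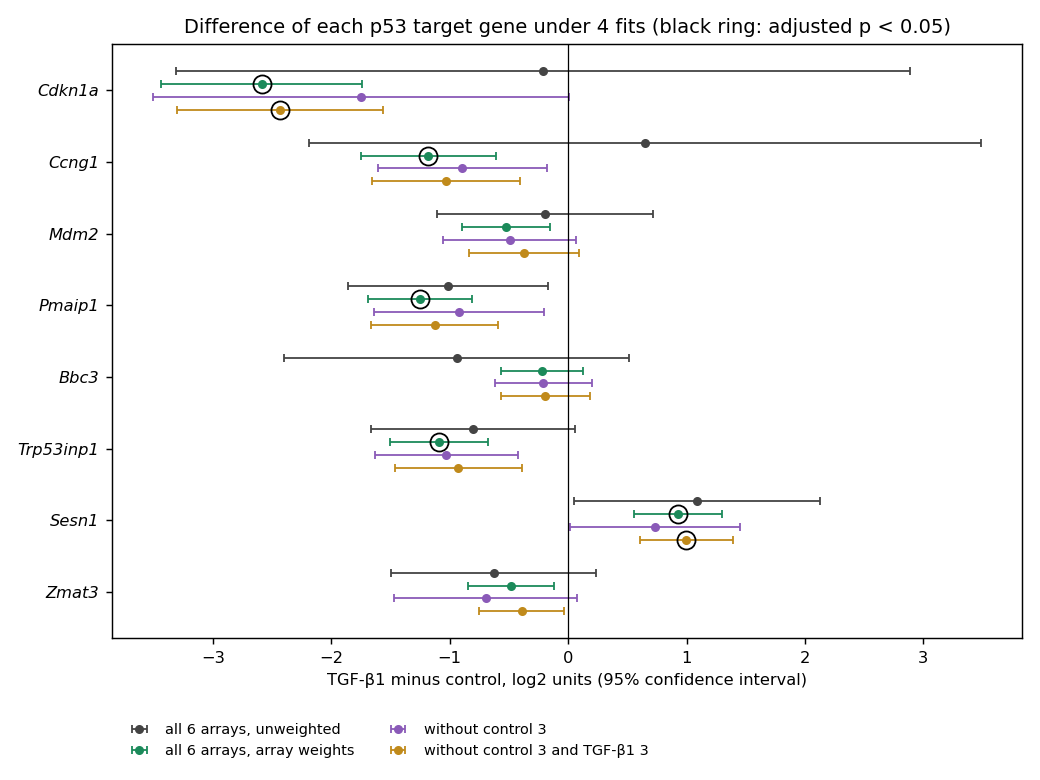
Difference between TGF-β1 and control arrays in log2 units (x axis) with its 95% confidence interval for each gene (y axis) under 4 limma fits, with a black ring where the adjusted p is under 0.05. The unweighted fit of all 6 arrays has wide intervals for Cdkn1a (-3.31 to 2.89) and Ccng1 and no rings, and the array-weighted fit has 5.

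Of 16 listed regulators and relatives of p53, 15 were measured, and 0 passed in the weighted fit, where 6.88% of all genes did. So short a list can hold 0 called genes at that share. At an unadjusted p under 0.05 there were 3, against 3997 of all 19505 genes, and the median difference was 0.00. Trp53 itself had no probe set under its symbol and was not analysed here. Chek1, a checkpoint kinase of replication stress, had the smallest p, with a difference of 0.53 ± 0.15 (adjusted p = 0.0576). Mdm4, the partner of Mdm2 that blocks p53 activity, was at 7.87, 7.28 and 6.52 in the controls and 7.65, 7.60 and 6.46 in the TGF-β1 arrays, a weighted difference of 0.13 ± 0.21. Trp63, the p53 relative of basal epithelial cells, differed by -0.24 ± 0.23. Cdkn2a, whose ARF product restrains Mdm2, was near the bottom of every array at 4.14 to 5.40 and differed by -0.03 ± 0.15.

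Some further p53 targets fell as well. Of 42 listed, 40 were measured; 12 fell in the weighted fit (30.0%, against 3.44% of all genes), 0 rose and 28 did not pass. The difference was below 0 in 29 of the 40 and above 0 in 11, where 9578 of all 19505 genes were below 0 and 9927 above. At an unadjusted p under 0.05 there were 21 lower and 3 higher, against 2018 lower and 1979 higher over all genes. The median difference over the 40 was -0.36, and 6 of the 12 also passed in the fit of the 4 arrays numbered 1 and 2. Eda2r, a receptor of the TNF receptor family for ectodysplasin A2, was at 8.70, 9.37 and 6.53 in the controls and at 6.73, 7.38 and 7.02 in the TGF-β1 arrays. It fell by 2.22 ± 0.24 (adjusted p = 4.29e-04), which is close to the difference of Cdkn1a, but here TGF-β1 3 was as low as the other treated arrays. Tspan11, a tetraspanin, fell by 1.26 ± 0.16 (adjusted p = 0.0014), and Gadd45a, a stress protein of growth arrest and DNA repair, fell by 1.07 ± 0.18 (adjusted p = 0.0051). Gadd45a was at 8.86, 9.21 and 9.84 in the controls and 8.13, 7.77 and 8.78 in the TGF-β1 arrays, so its groups did not overlap with control 3 included. Over all 96 measured genes of the 5 pathway lists, the weighted fit called 22. It called 0 of them without control 1, control 2, TGF-β1 1 or TGF-β1 2, 5 without TGF-β1 3 and 13 without control 3. In the same order those fits called 0, 0, 8, 12, 375 and 544 of all genes. The lists were written with earlier results of these data known and are no independent evidence of a direction.

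Of 18 other listed members of the Bcl-2 family, caspases and their inhibitors, 16 were measured and 0 passed in the weighted fit, where 6.88% of all genes did. This list too is short enough to hold 0 called genes at that share. At an unadjusted p under 0.05 there were 4, against 3997 of all 19505 genes, and the median difference was -0.02. Bad, a BH3-only protein controlled by phosphorylation, had the smallest p and differed by 0.50 ± 0.14 (adjusted p = 0.0515).

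Of 14 other cell cycle inhibitors, G1 cyclins and their kinases, 13 were measured, 1 rose and 1 fell (7.69% each, against 3.45% and 3.44% of all genes). Cdkn1b, which encodes the related inhibitor p27, rose by 0.62 ± 0.14 (adjusted p = 0.0190). It was at 8.03, 7.82 and 8.19 in the controls and at 8.47, 8.54 and 8.55 in the TGF-β1 arrays, with no overlap. Ccnd2, a cyclin of the G1 phase, fell by 0.77 ± 0.18 (adjusted p = 0.0259). Cdkn2b, an inhibitor of Cdk4 and Cdk6 that TGF-β is known to induce, differed by -0.31 ± 0.16 (adjusted p = 0.303), and Cdkn1c, the p57 inhibitor, by -0.25 ± 0.14 (adjusted p = 0.391). Neither Cdkn1b nor Ccnd2 passed without control 3 and TGF-β1 3.

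Cell cycle genes that p53 is known to lower, through p21 and the DREAM repressor complex, were higher in the TGF-β1 arrays. Of 14 listed, 12 were measured; 8 rose in the weighted fit (66.7%, against 3.45% of all genes), 0 fell and 4 did not pass, with a median difference of 0.76. Cdc25c, the phosphatase that starts mitosis, rose by 1.16 ± 0.16 (adjusted p = 0.0017). It was at 6.44, 6.63 and 6.38 in the controls and 7.75, 7.84 and 7.02 in the TGF-β1 arrays, with TGF-β1 3 again nearest to the controls. Ccnb2, a mitotic cyclin, rose by 0.95 ± 0.14, and Birc5, an apoptosis inhibitor of the mitotic spindle, rose by 0.82 ± 0.15. Of the 8, 4 also passed in the fit of the 4 arrays numbered 1 and 2. The list median, relative to controls 1 and 2, was 0.83, 0.64 and 0.44 in TGF-β1 arrays 1 to 3 and -2.23 in control 3, where Actb (8.91) and Gapdh (6.21) were low as well.

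**Figure D4:**
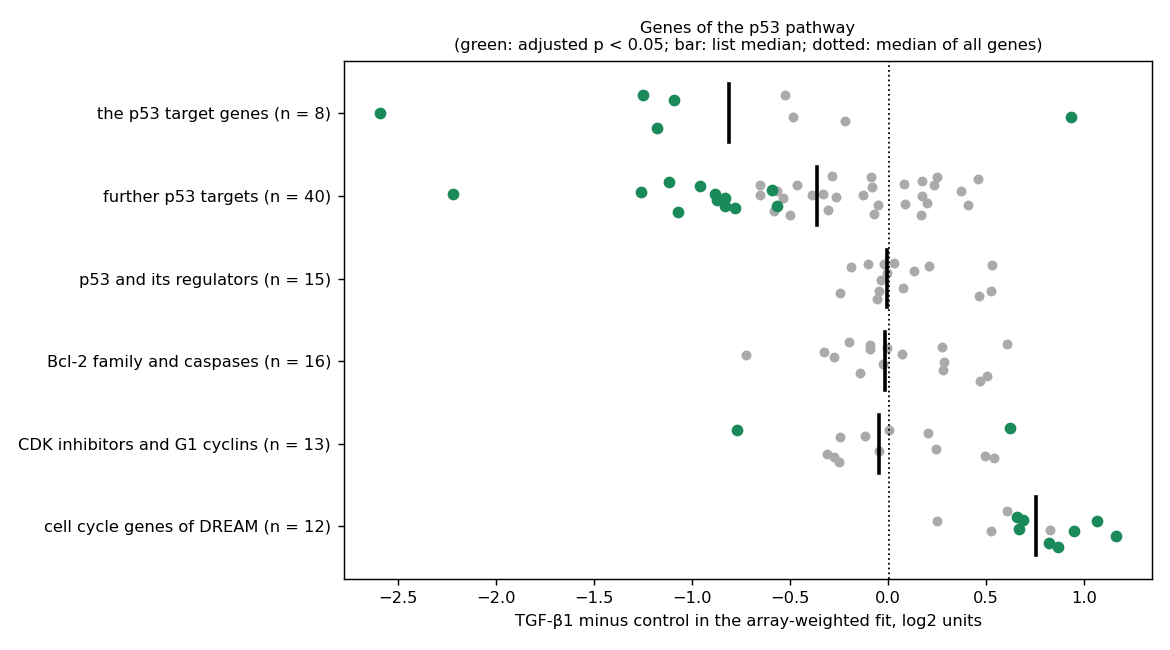
Difference between TGF-β1 and control arrays in the array-weighted fit (x axis, log2 units) for each measured gene of 6 lists of the p53 pathway (rows), green where the adjusted p is under 0.05, with the list median as a bar and the median of all genes as a dotted line. The p53 target genes and the further targets lie mostly below 0 (medians -0.81 and -0.36), the cell cycle genes of DREAM above 0 (0.76), and the other lists around 0.

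Markers of cell types moved between the groups too, and in bulk glands fewer cells of a type and less RNA per cell cannot be told apart. All 7 measured of 9 salivary acinar markers rose in the weighted fit, with medians of 5.77 to 7.61 in the controls and 9.33 to 11.2 in the glands given TGF-β1. Of 10 epithelial markers 4 rose, of 5 measured neuronal markers 4 rose, and of 8 mesenchymal and 6 endothelial markers 1 each fell. Over all genes 3.45% rose and 3.44% fell. The epithelial markers did not all go 1 way: the weighted difference was above 0 in 7 and below 0 in 3. In the fit of the 4 arrays numbered 1 and 2, 7 acinar, 2 epithelial, 0 neuronal, 0 mesenchymal and 1 endothelial marker passed. Of 6 macrophage and 6 skeletal muscle markers, 0 passed in either fit. Macrophage markers had medians of 6.78, 7.06 and 7.54 in controls 1 to 3 and 6.51 to 7.38 in the glands given TGF-β1, highest in TGF-β1 3 among the treated. Of 2 measured red blood cell markers, Hbb-y fell, and neither passed in the fit of those 4 arrays. The part of these cell types in the differences of the p53 targets was not tested.

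The genes whose pattern over the 6 arrays was most like that of Cdkn1a were Mitf, a transcription factor of melanocytes and other cells, Cd36, a fatty acid receptor, Ddit3, the stress factor CHOP, Phlda3, a p53 target that restrains Akt, and Nfil3, a transcriptional repressor. Their Pearson correlations with Cdkn1a were 0.987 to 0.993 and are a description only, since control 3 stands apart and 80 of 17125 genes reached more than 0.95. Ddit3 was at 11.26, 11.83 and 7.55 in the controls and at 9.44, 9.98 and 11.57 in the TGF-β1 arrays. It shared with Cdkn1a the high value in TGF-β1 3, which here exceeded control 1. Over the 5 arrays without control 3 the most similar genes were others: Il5, Ptges3, Spire1, Pla2g4a and Shfl. Over those arrays 125 of 17125 genes reached more than 0.95. Il5 and Ptges3 were dim in them, at 5.24 to 5.77, where the lower quartiles were 5.11 to 5.15.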

How the data were processed

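The deposited table holds log2 values per probe set, which the authors computed by RMA (submitters' processing notes, with neither version nor genome build). RMA brings arrays to a common distribution, yet control 3 differs in spread. The values were used as deposited, so this difference enters the fits that include control 3, apart from the quantile-normalized ones. Of 22206 probe sets, 19572 had 1 gene symbol, 0 had several and 2634 were unnamed here; the probe set of highest mean stood for a gene. The comparison used limma 3.58.1 under R 4.3.3 (lmFit, eBayes, two-sided, Benjamini-Hochberg over 19505 genes, threshold 0.05). The main fit had no weights, and a fit with arrayWeights stood beside it. Simulated data were used to check only that planted differences were recovered in their median, not the rate of false calls. No set test was run. Arrays carry no read depth, so their number limits the precision; 3 against 3 arrays cannot go below p = 0.1 in an exact permutation test. Alternatives covered normalization, filter, probe set rule, prior, weights, threshold, replicate block and arrays left out. Named genes are the 10 targets, up to 3 called genes per list and direction or the one of smallest p, fixed symbols and the genes most like Cdkn1a. The members and lists were chosen with earlier results of these data known. The labels name no pairs, and same-numbered arrays of the 2 groups were not treated as pairs. Their deviations from the group means correlated at -0.07, -0.01 and -0.05. Control 3 enters the mean of the controls, so these values cannot show whether the arrays were paired.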

Additional observations from a re-analysis of the deposited data

How the results depend on the processing

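The unweighted fit called 0 genes, 0 of the 8 p53 targets and 0 of 96 genes of the 5 pathway lists in all alternatives but 2: leaving out control 3 and TGF-β1 3 gave 505, 2 and 11, and array weights gave 1342, 5 and 22. Its counts at an unadjusted p under 0.05 were 389 genes and 2 targets. In that fit the difference of Ccng1 turned from 0.65 to -1.18 with array weights and to -1.03 without control 3 and TGF-β1 3. With single arrays left out it ranged from -0.89 to 1.52, that of Cdkn1a from -1.75 to 0.70 and that of Mdm2 from -0.49 to 0.0551. In the weighted fit these ranges were -1.12 to 1.31 for Ccng1, -2.50 to -0.02 for Cdkn1a, -0.44 to 0.11 for Mdm2, -1.39 to -0.52 for Pmaip1, -1.09 to -0.62 for Trp53inp1, -1.31 to -0.10 for Bbc3, -0.76 to -0.28 for Zmat3 and 0.50 to 1.46 for Sesn1. With single arrays left out, the weighted fit called 0 to 4 targets, 0 to 544 genes and 0 to 13 pathway genes. Quantile normalization gave 3 targets, 450 genes and 6 pathway genes, median centring 0, 265 and 5, and leaving out control 3 and TGF-β1 3 gave 2, 508 and 11. Leaving out the 33.3% of genes with the lowest mean gave 6 targets of the 7 left, 4349 genes of the 13003 left and 51 pathway genes. Calls thus rose over all genes, not in the targets alone. Gene-by-gene weights gave 874 genes. A threshold of 0.01 gave 538 genes and 9 pathway genes, and one of 0.1 gave 2127 genes. With the replicate number as a block the weighted fit called 5 targets and 2502 genes, and the unweighted fit 0. The cause of these changes was not tested. Allowing 5000 iterations changed no count, as the estimation stopped at the same point.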
